A study of Caenorhabditis elegans with 2 samples.

Results

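PES-1 peaks lying in the upstream part of protein-coding promoters, away from annotated small RNA genes, numbered 217 of the 1440 distinct nuclear summits in the conservative list. That list holds the peaks that reproduced between the replicates by the irreproducible discovery rate (IDR), an estimate of the share of peaks that would not recur. A summit, the position of the highest signal in a peak, was kept when it lay more than 250 and up to 1000 bp upstream of the 5′ end of a protein-coding transcript. It was left out when it lay within the proximal promoter of any such transcript, from 250 bp upstream to 200 bp downstream of its 5′ end, or within 200 bp of a tRNA, snoRNA, snRNA or miRNA gene. A further 65 summits met the distance rule but lay near such a small RNA gene. Chromatin was immunoprecipitated and sequenced (ChIP-seq) from whole early embryos of Caenorhabditis elegans, 1 hour old, from bleached eggs of strain RW12239. In this strain the CRISPR insertion st12239 adds TY1, EGFP and 3xFLAG tags to pes-1 at its own locus on chromosome IV, and the sample descriptions name an anti-GFP antibody for the precipitation, while the antibody label gives pes-1. The labels define 1 group of 2 biological replicates of this 1 strain, with no second genotype, age or treatment, so the comparisons below are between places in the genome. Nothing in peak lists measures expression, and the labelled stage and tissue were not checked against marker genes.

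PES-1 is a forkhead transcription factor, a family that binds DNA through a winged helix domain and whose usual site resembles GTAAACA. The gene was found through a promoter trap and is expressed in a subset of early embryonic lineages, where it overlaps in function with its relative FKH-2. In C. elegans many messenger RNAs are trans-spliced to a spliced leader, so that the true start of transcription often lies upstream of the annotated 5′ end and the trimmed stretch, the outron, is missing from the annotation. Sequence at some distance upstream of an annotated gene can therefore hold the core promoter, an enhancer, or part of a neighbouring gene.

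The windows shown first are picked examples of the 217 summit windows on which the sequence results rest. Each reaches 50 bases to either side of a summit, in ce11 coordinates. Capitals mark CTTGCGC or CCGCCC (or a reverse complement), the motifs that were more frequent at these summits than beside them. The strongest upstream peak lay upstream of K12H4.5 (chrIII:8043907-8044007, plus strand), and the others are peaks further down the ranking that hold either motif, upstream of rps-28 (chrIV:1659211-1659311, plus strand) and Y65A5A.2 (chrIV:16415225-16415325, plus strand).
K12H4.5: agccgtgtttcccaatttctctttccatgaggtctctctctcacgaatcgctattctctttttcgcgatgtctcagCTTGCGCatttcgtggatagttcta
rps-28: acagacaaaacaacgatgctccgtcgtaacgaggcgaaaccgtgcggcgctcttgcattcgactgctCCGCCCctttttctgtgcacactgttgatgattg
Y65A5A.2: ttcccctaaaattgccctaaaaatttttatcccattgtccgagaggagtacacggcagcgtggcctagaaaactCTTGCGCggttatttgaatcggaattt

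Among the peaks were 2 larger groups, in which each peak resembled at least 1 other peak of its group in sequence. The next windows show 3 strong peaks of the first group, upstream of atad-3 (chrII:10248486-10248586), eel-1 (chrIV:3050830-3050930) and rps-24 (chrIV:385509-385609), all on the plus strand. Capitals mark the 16-base word found in most of that group.
atad-3: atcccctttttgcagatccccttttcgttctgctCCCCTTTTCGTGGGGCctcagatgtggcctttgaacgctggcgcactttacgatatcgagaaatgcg
eel-1: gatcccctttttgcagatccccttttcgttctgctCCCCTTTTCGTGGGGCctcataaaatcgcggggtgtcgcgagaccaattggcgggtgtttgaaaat
rps-24: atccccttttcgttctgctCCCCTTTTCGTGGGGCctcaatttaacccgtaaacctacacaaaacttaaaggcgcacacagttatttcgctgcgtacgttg

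Windows of the second group are shown for mtcu-2 (chrII:10033631-10033731, plus strand), vps-39 (chrV:14038844-14038944, minus strand) and unc-85 (chrII:4701703-4701803, minus strand). Capitals mark a 16-base word found in 6 of the 16 windows of that group, and each window is turned so that the word reads the same way.
mtcu-2: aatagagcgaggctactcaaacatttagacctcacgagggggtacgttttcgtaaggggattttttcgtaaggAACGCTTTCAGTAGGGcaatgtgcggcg
vps-39: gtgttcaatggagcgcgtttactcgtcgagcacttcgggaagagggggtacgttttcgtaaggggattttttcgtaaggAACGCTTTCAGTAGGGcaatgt
unc-85: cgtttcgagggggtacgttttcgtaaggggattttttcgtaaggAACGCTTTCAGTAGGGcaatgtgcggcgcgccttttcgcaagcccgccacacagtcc

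The strongest upstream peak stood apart from the rest. It lay 530 bp upstream of K12H4.5, at chrIII:8043814-8044117, with a deposited signal of 1698, the peak caller's own value in its own units. In the replicates' own ranked lists it reached 790 in replicate 1 and 911 in replicate 2. The next, 978 bp upstream of M01F1.9 and inside an intron of M01F1.8 (chrIII:3499891-3500169), had a signal of 958, with 407 in replicate 1 and 538 in replicate 2. After it came a summit between npp-6, which encodes a nuclear pore protein, and spd-5, which encodes a scaffold protein of the centrosome (chrI:5176280-5176564). It had a signal of 859, with 375 in replicate 1 and 482 in replicate 2, and lay 410 bp from the 5′ end of npp-6 and 711 bp from that of spd-5, within an intron of spd-5. The next lay between atad-3, the gene of a mitochondrial AAA ATPase, and nrde-2, a nuclear RNA interference gene, with a signal of 665, 289 in replicate 1 and 366 in replicate 2. In each of these peaks both replicates had far more signal than the median upstream peak.

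The remaining peaks among the 20 strongest had signals from 374 to 618. Among them were peaks upstream of the ribosomal protein genes rpl-3 (608, at 285 bp), rpl-15 (409, at 341 bp) and rps-24 (374, at 328 bp), and eif-3.C, a subunit of translation initiation factor 3 (474, at 252 bp). Others lay upstream of dhs-8, a short-chain dehydrogenase gene (618, at 997 bp), pcrg-1 (612, at 296 bp), eel-1, a HECT-type ubiquitin ligase gene (580, at 776 bp), tpra-1 (561, at 647 bp) and mtcu-2, which acts in mitochondrial tRNA modification (538, at 468 bp). The remaining 7 lay upstream of genes known by sequence names, K05C4.2 (616), W01D2.3 (529), F39G3.3 (500), ZK816.3 (457), F08G2.5 (419), F44E7.4 (413) and Y62F5A.12 (391). All 20 were also in both replicates' own thresholded lists, and replicate 2 had the higher signal in 18 of the 20.

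**Figure D1:**
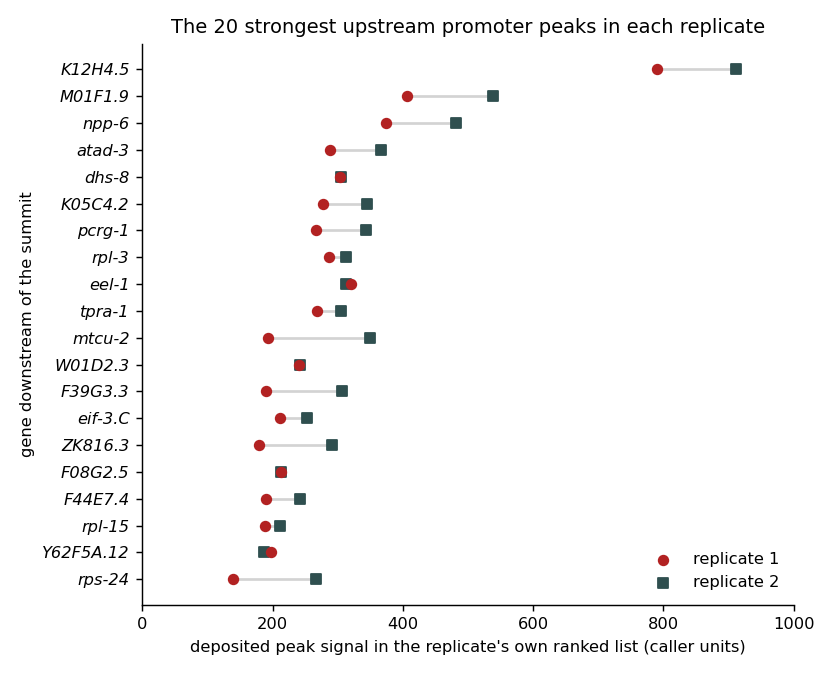
Deposited peak signal (x axis, caller units) in replicate 1 (circles) and replicate 2 (squares) for the 20 strongest upstream promoter peaks, ordered down the page by the signal in the conservative list and named by the gene downstream. The K12H4.5 peak, at 790 and 911, lies far to the right of the others, and replicate 2 is higher in 18 of the 20.

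Over all 217 upstream peaks the signal had a median of 141 and quartiles of 111 and 196. At the low end, 2 peaks had very low signals in the conservative list, 9.88 at a second summit upstream of lin-13, which encodes a zinc finger protein, and 6.25 upstream of rbm-7. The replicate peak nearest to that lin-13 summit was the one also nearest to a stronger summit of the same promoter, with 48.1 in replicate 1 and 51.9 in replicate 2. For the rbm-7 summit a replicate 1 peak of 51.7 lay within 200 bp, and no replicate 2 peak did. Of all 217 peaks, 141 (65.0%) were exactly 330 bp wide with the summit in the middle, 165 bp from the start. This form was not particular to upstream peaks, as 875 peaks in the whole conservative list had it. Upstream peaks of this form made up 70 of the 72 weakest and 12 of the 73 strongest, and their median signal was 116.2, against 252 for the other 76 peaks. For these peaks the distances and windows below are taken from the middle of the peak.

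Whether upstream windows held more peaks than their share depended on which summits were counted. Of the 1440 summits, 15.1% (95% Wilson interval 13.3 to 17.01%) lay in these windows, which make up 14.9% of nuclear bases, a ratio of 1.01 (0.892 to 1.14; two-sided exact binomial test, adjusted over 5 classes, p = 0.882). Proximal promoters, by the same count, held 23.4% of summits in 11.0% of bases, a ratio of 2.12 (adjusted p = 6.1e-40, exact binomial test). Introns outside promoters had a ratio of 0.627, intergenic sequence 0.646 and exons 0.145. That total includes the 366 summits near small RNA genes, which cannot fall in any of these classes and which had the highest median signal of the classes, 338. Among the 1074 summits away from such genes, a count added after the data were seen, 20.2% were upstream against 15.02% of the bases away from such genes, a ratio of 1.35 (1.19 to 1.51; adjusted p = 7.74e-06, exact binomial test). On that count proximal promoters had a ratio of 2.82, introns 0.835, intergenic sequence 0.861 and exons 0.193. At a stricter IDR of at most 0.001, 72 upstream summits remained, with a ratio of 0.794 over all 608 summits (exact binomial test, adjusted p = 0.0350) and of 1.48 over the 323 away from small RNA genes (adjusted p = 0.00071).

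Within the window, the peaks crowded towards the gene. The distance to the nearest 5′ end that met the rule had a median of 496 bp and quartiles of 341 and 698 bp. The 250 bp nearest to the gene, up to 500 bp, held 110 summits (50.7%, Wilson interval 44.1 to 57.3%) in 35.1% of the eligible bases, or 20.9 per Mb. Between 500 and 750 bp there were 60 summits, 12.1 per Mb, and between 750 and 1000 bp there were 47, or 9.91 per Mb. The first 75 bp alone, up to 325 bp, held 52 summits where an even spread over eligible bases would place 23.5. The median signal was 152 up to 500 bp, 142 between 500 and 750 bp and 111 beyond 750 bp, so the most distant peaks were also the weakest. Values at the edges show that the 2 limits of distance from the gene are not gaps in the data. The closest peak inside the window was at W03F8.4, on the first base of the window (signal 199, with 78.0 in replicate 1 and 114.9 in replicate 2), and the closest outside at eif-3.B (250 bp, signal 255). At the far edge the last inside was at T28F4.1 (999 bp, signal 249) and the first outside at fbxb-58 (1006 bp, signal 201). The upstream peak nearest to a small RNA gene was at his-72, 231 bp from the snoRNA gene Y49E10.36 (signal 146), and the nearest one left out by that limit was at W06H8.6, 80 bp from the snoRNA gene W06H8.17 (signal 158).

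**Figure D2:**
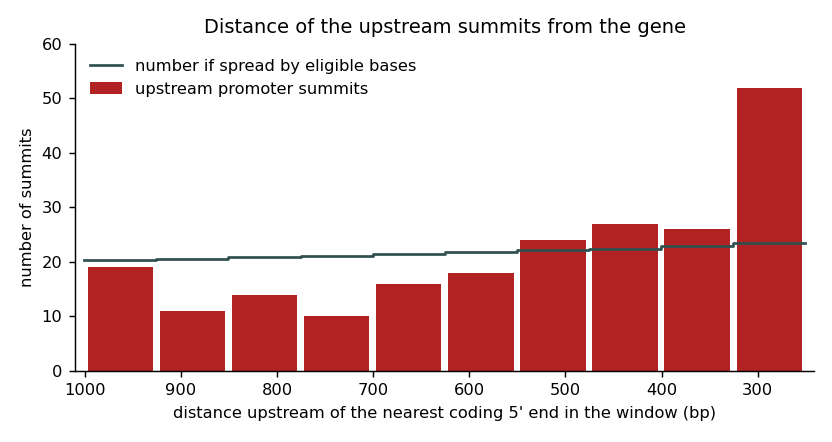
Number of upstream promoter summits (bars, y axis) by distance from the nearest coding 5′ end that met the rule (x axis, bp, gene to the right), in 75 bp steps, with the number an even spread over eligible bases would give (line). The step next to the gene holds 52 summits against 23.5 for an even spread, and beyond about 550 bp every step lies below the line.

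Most upstream summits lay between genes. Intergenic sequence held 152 (70.0%) against 54.1% of the eligible bases, a ratio of 1.29 (adjusted p = 3.24e-06, exact binomial test). Exons of coding genes held 11 (5.07%) against 21.6%, a ratio of 0.235 (exact binomial test, adjusted p = 4.54e-11). Introns held 54 (24.9%) against 24.3%, a ratio of 1.02 (adjusted p = 0.813, exact binomial test). Of the 65 summits inside a gene, 41 lay inside the very gene they were assigned to, upstream of a shorter transcript, as at tpra-1 and his-72, and 24 lay inside another gene, as at mtcu-2, whose summit was in an intron of let-268. A position upstream of coding 5′ ends on both strands, as between divergent genes, was held by 22 summits (10.1%) against 4.92% of eligible bases, a ratio of 2.06 (exact binomial test, p = 0.00137). This ratio was 2.77 in replicate 2's own list and 3.23 in replicate 1's. Most summits (193) were upstream of 1 gene and 24 were upstream of 2.

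Chromosome V held fewer upstream summits than its eligible bases would give, which passed the test in each list used but replicate 1's, and chromosome III more in the conservative list. On III there were 41 upstream summits, a ratio of 1.49 to the number its eligible bases would give (two-sided exact binomial test, adjusted over 6 chromosomes, p = 0.0310). On V there were 34, a ratio of 0.652 (adjusted p = 0.0192 by the same exact test). The ratio was 1.39 on chromosome I (exact test, adjusted p = 0.0504) and 0.699 on X (adjusted p = 0.107). In replicate 1's own list, without replicate 2, the ratios were 1.15 for III and 0.661 for V, with p of 0.557 and 0.0855 after adjustment (exact binomial test). In replicate 2's own list the ratio for III was 1.32 (exact binomial test, adjusted p = 0.204) and that for V 0.457 (adjusted p = 5.1e-05), while I passed there at 1.502 (adjusted p = 0.0208). With the optimal list I passed at 1.62 (exact binomial test, adjusted p = 0.000367) III did not at 1.33 (adjusted p = 0.0809), and V was at 0.642 (adjusted p = 0.0015). At an IDR of at most 0.001 the ratio was 1.64 for III (exact binomial test, adjusted p = 0.0740) 0.347 for V (adjusted p = 0.00504) and 0.275 for X (adjusted p = 0.0149).

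Presence in the replicates' own lists followed the strength of the upstream peaks. A summit within 200 bp was present in both replicates' own thresholded lists for 89 of 217 upstream peaks (41.0%, Wilson interval 34.7 to 47.7%), where 46.5% of all 1440 summits were so supported. Replicate 1's list alone held 30, replicate 2's alone held 40, and 58 were in neither and passed only in the comparison of the replicates. By strength, 67 of the 73 strongest upstream peaks were in both lists, 22 of the 72 in the middle and 0 of the 72 weakest. These lists and the signal come from the same libraries that chose the peaks by IDR, so this gradient is no independent support. In proximal promoters the share in both lists was 45.1% (odds ratio 0.846, with p = 0.380 by Fisher's exact test adjusted over 3 classes). In introns it was 25.1% (odds ratio 2.07, with adjusted p = 0.000983 in that exact test) and in intergenic sequence 31.9% (odds ratio 1.48, adjusted p = 0.0746). Among summits with an IDR of at most 0.001 none of these differences passed. Signal, given next, also differed between the classes, so these comparisons are not separate from it.

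Signal in the conservative list had the same ranking of classes. The median of 141 for upstream peaks compared with 155 for proximal, 119 for intronic and 125 for intergenic peaks. Above 130, the median of all summits away from small RNA genes, lay 55.3% of upstream peaks, against 66.5% of proximal ones (odds ratio 0.624, with adjusted p = 0.0139 by Fisher's exact test). The corresponding share was 33.3% for introns (odds ratio 2.47, with adjusted p = 7.16e-06 in that exact test) and 45.3% for intergenic sequence (odds ratio 1.496, adjusted p = 0.0378). With the split at the upper quartile only the difference from introns passed, and at an IDR of at most 0.001 none did. Where both replicates' ranked lists held an upstream peak (214 cases), their signals had Spearman's rho of 0.644 and Pearson's r of 0.853 on the log2 scale. This correlation runs across peaks, which had been selected for agreement between the same libraries and are not independent. Replicate 2 was higher in 179 of the 214. The median log2 difference, replicate 2 minus replicate 1, was 0.36 (SD 0.41 over peaks), and no scaling between the replicates is stated.

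**Figure D3:**
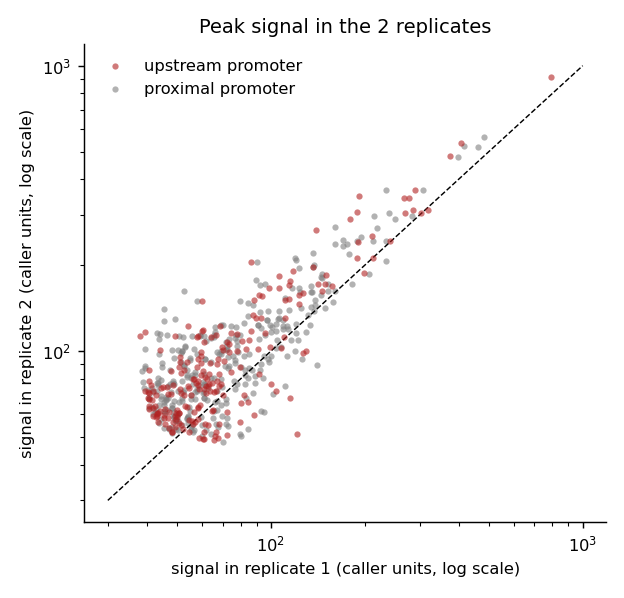
Deposited signal in replicate 1 (x axis) and replicate 2 (y axis), both in caller units on log scales, for upstream promoter peaks (red) and proximal promoter peaks (grey) found in both ranked lists, with the line of equal values dashed. Most points lie above the line, 179 of the 214 upstream peaks among them. The classes overlap apart from the K12H4.5 peak, at 790 and 911, where proximal peaks reach 481 in replicate 1 and 564 in replicate 2.

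Base composition set the summits apart from the sequence around them. Windows reaching 50 bp to either side of the summit held 49.9% ± 8.50 G and C (SD over 217 peaks), against 36.8% ± 8.71 in windows of the same length centred 500 bp away on the side away from the gene. The summit was richer in 183 peaks and poorer in 32 (two-sided exact sign test, p = 6.68e-27). Windows 500 bp towards the gene held 39.6%, also below the summit. For the 110 summits up to 500 bp from the 5′ end, these windows were centred at or past that end. Proximal summits held 49.3% ± 7.31. Of the upstream summit windows, 72.4% had at least 45% G and C, against 11.6% of all eligible windows. Repeat-masked sequence was less frequent at the summit base (26.3%) than at the flank centre (35.5%; exact McNemar test, p = 0.0399), a difference that did not pass with the optimal list or with either of the 2 other flanks.

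The forkhead core site was rare. GTAAACA, read in either orientation in these windows, was present at 1 of 217 upstream summits, near tag-294 (signal 120, with 59.2 in replicate 1 and 64.5 in replicate 2), and in 3 flank windows (exact McNemar test, adjusted p = 0.667). It was found in 1.25% of all eligible windows of the same length and in 0.700% of those with at least 45% G and C. The looser forkhead pattern RYAAAYA was at 25 summits and in 31 flanks (adjusted p = 0.571, exact McNemar test), and in 18.7% of all eligible windows. Among windows with at least 45% G and C it was in 9.55% of upstream summits and 8.21% of eligible windows. Absence of these letters from a window says nothing of whether the tagged protein was there.

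Of 16 motifs compared between summits and flanks, 2 passed (12.5%), both more frequent at the summit. The motifs were chosen with earlier results of these data known, so these tests are not all independent of those results. CTTGCGC was in 15 summit windows and 1 flank window (6.91% against 0.461%; exact McNemar test, adjusted p = 0.00195). All eligible windows held it in 0.353% of cases and those rich in G and C in 0.998%, while 10 of the 157 equally rich summit windows held it (6.37%). It was known from earlier results of these data as a word frequent at the summits of all peaks, so its presence here is not independent of them. The 15 peaks had signals from 105 to 1698, a median of 178, and 9 were among the 73 strongest. They included peaks upstream of K12H4.5, eif-3.C, the chemoreceptor gene sri-5, jhdm-1, a JmjC histone demethylase gene, tomm-20, a mitochondrial import receptor gene, gpb-1, a G protein beta subunit gene, R06C1.4, famh-136, F22F1.3, ttc-4, ttr-57 and acl-2, with 2 summits upstream of Y65A5A.2. The sri-5 peak had a signal of 314, with 118 in replicate 1 and 191 in replicate 2.

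CCGCCC, the core of the GC box, was in 18 summit windows and 4 flanks (8.29% against 1.84%; adjusted p = 0.0206, exact McNemar test), and in 1.62% of all eligible windows. Among windows with at least 45% G and C it was in 9.55% of upstream summits and 6.20% of eligible windows, so that composition moves with this result. The strongest peaks holding it were at K05C4.2, rps-28 (signal 327, with 149 in replicate 1 and 172 in replicate 2) and uba-5, which encodes the activating enzyme of UFM1. With flanks towards the gene CCGCCC did not pass (exact McNemar test, adjusted p = 0.115), and with windows reaching 100 bp from the summit CTTGCGC did not (adjusted p = 0.0509). At an IDR of at most 0.001, with 72 peaks, neither passed (exact McNemar test, adjusted p = 0.125 for both), although the difference between summit and flank was larger, 9.72 percentage points for each against 6.45 for all 217 peaks.

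Among the 14 motifs that did not pass, GAGAGA was at 28 summits and in 13 flanks, the GATA-type HGATAR at 28 and 47, the homeobox core TAATTA at 3 and 13 and the TATA box TATAAA at 9 and 24 (exact McNemar test, adjusted p = 0.0632 for each of the 4). GAGAGA passed with the optimal list, in either single replicate's list, with flanks 1000 bp away and with windows reaching 100 bp (exact McNemar test, adjusted p from 0.00855 to 0.0379). The lower frequency of HGATAR passed with the optimal list, in replicate 1's own list, and with flanks towards the gene or 1000 bp away (exact McNemar test, adjusted p from 0.000977 to 0.0316). Composition moves with these 4 results too. Among windows with at least 45% G and C, TAATTA was in 0.637% of upstream summits and 0.940% of eligible windows, and TATAAA in 2.55% and 2.28%. HGATAR was in 11.5% and 16.3% of them, and GAGAGA in 16.6% and 10.7%. The E2F-type site TTTNGCGC, with C or G at N, was at 8 and 1 (exact McNemar test, adjusted p = 0.0893). The remaining sites had adjusted p from 0.437 to 1 by the exact McNemar test. They were the E-boxes CACGTG (4 and 4) and then CATATG (1 and 5), the T-box site TCACACC (2 and 0), the bZIP sites TTGCGCAA (2 and 0) and TGACGTCA (1 and 4), the splice acceptor TTTCAG (27 and 33) and the word GTGTTG (10 and 16). The shares at upstream summits were not distinguished from those at proximal summits for any motif (0 of 16, or 0%, Fisher's exact test with Benjamini-Hochberg adjustment, where 2 motifs had an unadjusted p under 0.05). CTTGCGC, for instance, was at 7.42% of proximal summits, and CCGCCC at 15.4%. The tRNA promoter word GGTTCGA, chosen after the values were seen, was at 4 upstream summits and in 1 flank.

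**Figure D4:**
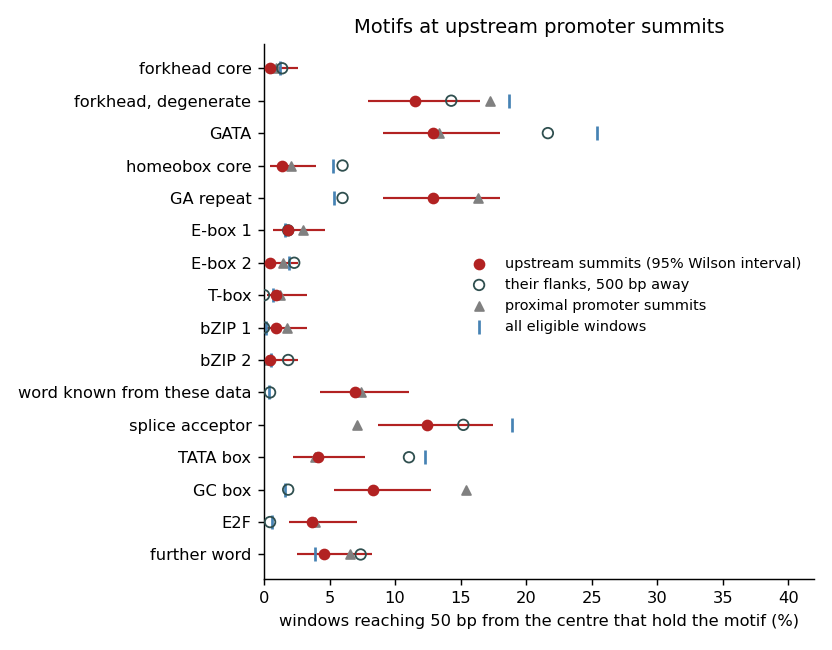
Share of windows reaching 50 bp from their centre that hold each of 16 motifs (x axis, %) at upstream promoter summits (red, bars are 95% Wilson intervals), in their flanks 500 bp away (open circles), at proximal promoter summits (triangles) and in all eligible windows (ticks). The word known from these data, CTTGCGC, and the GC box, CCGCCC, lie well to the right of their flanks, and the forkhead core lies at 0.461%.

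A search of all 7-base words, added after the data were seen, turned up repeated sequence. Of 795 words present in at least 10 windows, 53 (6.67%) were more frequent at the summit and 36 (4.53%) in the flank. Leading them was AAAGGGG, in 25 summit windows and 1 flank window (exact McNemar test, adjusted p = 0.00064), followed by CCTTTTC in 25 and 2. Windows of 201 bases were then compared with each other, and 87 of the 217 peaks (40.1%) resembled at least 1 other upstream peak, in 21 groups. Of these groups 11 were pairs. No such share is given for flank or proximal windows, so the 40.1% has no background to be read against. Resemblance to any 1 member was enough to join, so members need not all share a sequence. The longer word chosen to mark a group was in 12 of 16 summit windows in the first group. It was in only 1 of 5 in the group led by T24B8.3, and in 1 of 3 in those led by mog-4, mrpl-15 and gln-3. With 1 peak kept per group, 151 peaks remained, 12 of 392 words were more frequent at the summit and AAACGCG (13 against 0 windows, adjusted p = 0.0213 by the exact McNemar test) led those. CTTGCGC and CCGCCC still passed among those 151 (exact McNemar test, adjusted p = 0.00781 and 0.0417). The lower frequency of TAATTA at the summit, which had not passed over all 217 peaks, passed there too (exact McNemar test, adjusted p = 0.0417). Over all 217 peaks, its shares in summit and eligible windows rich in G and C were closer, as given above. The groups were formed after the values were seen and are described without a test.

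The first group held 16 peaks. Besides M01F1.9, npp-6 with spd-5, atad-3 with nrde-2, eel-1, Y62F5A.12 and rps-24 it included peaks upstream of ttll-4, a gene of the tubulin tyrosine ligase-like family (signal 315, with 150.3 in replicate 1 and 185 in replicate 2), C26B2.7, Y54E10A.10, W09B6.4, enu-3.3, C09E7.7, duo-3, pid-4, Y32B12B.4 and C08F8.9. Their signals reached from 109.9 to 958 with a median of 229, against a median of 128 for the 130 peaks without a similar window. They lay 299 to 978 bp from the gene, 11 in intergenic sequence and 5 in introns, and 10 of the 16 were in both replicates' lists. The word CCCCTTTTCGTGGGGC was within 50 bp of the summit in 12 of the 16. It occurred at 85 places in the genome, 26 of them in eligible upstream sequence. A conservative summit lay within 200 bp of 24 of the 85 places, of which 12 were upstream summits, 6 proximal, 4 intronic and 2 intergenic. Since the word was chosen from the windows of these peaks, the 12 upstream places are not evidence about it, and without them a conservative summit lay at 12 of 73 places. Sequence within 200 bp of a conservative summit makes up 0.566% of nuclear bases. Of all 85, 61 were near any peak of the full ranked list, whose summits reach 26.7% of the genome at that distance.

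The second group also held 16 peaks, with signals from 105 to 538 and a median of 206. It included mtcu-2 (538, with 192 in replicate 1 and 349.9 in replicate 2), F44E7.4, npp-18, which encodes a nuclear pore protein (329, with 136 in replicate 1 and 197 in replicate 2), uba-5, vps-39, which acts in membrane tethering at lysosomes (270.1, with 106 in replicate 1 and 183 in replicate 2), and unc-85, a histone chaperone gene (269, with 114.9 in replicate 1 and 176 in replicate 2). The others lay upstream of Y48G10A.1, Y48G10A.2, Y65A5A.2 (2 summits), ttb-1, which encodes the general transcription factor TFIIB, mec-6, set-2, a histone H3 lysine methyltransferase gene, Y53F4B.21, ari-1.4 and acl-2. Replicate 2 had the higher signal in 13 of the 16, in 10 of the 16 of the first group and in 179 of 214 upstream peaks. The word AACGCTTTCAGTAGGG was in 6 of these windows and at 20 places in the genome. Of these places 14 had a conservative summit within 200 bp, 8 of them upstream, 3 proximal, 1 intronic and 2 intergenic. Without the upstream ones it was 6 of 12 places, where 0.566% of nuclear bases lie that near to a conservative summit. Both groups together made up 32 of the 217 peaks (14.7%) and 20 of the 73 strongest.

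**Figure D5:**
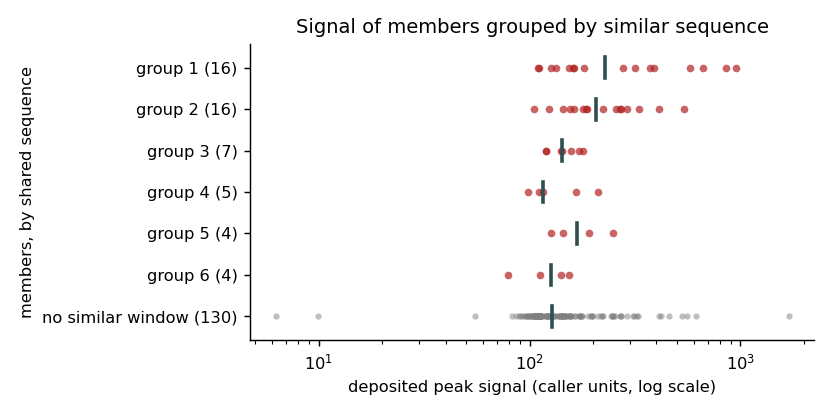
Deposited signal (x axis, caller units, log scale) of upstream promoter peaks in the 6 largest groups of similar sequence, with the number of peaks in parentheses, above the 130 peaks with no similar window; vertical bars are medians. The first 2 groups have medians of 229 and 206, the peaks without a similar window 128, and the K12H4.5 peak is the single point at the far right of the bottom row.

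Histone genes made up the third group. Its 7 peaks lay 508 to 770 bp upstream of his-15, his-14, his-4, his-60, his-31, his-48 and his-18, core histone genes that stand in clusters, with signals from 120 to 179, and 4 of the 7 summits were in exons of a neighbouring histone gene. The strongest, at his-15 (chrII:13817680-13817790), had a signal of 179, with 66.8 in replicate 1 and 114 in replicate 2. The windows of 5 of the 7 had from 5 to 17 similar copies elsewhere, so which copy those peaks belong to is uncertain, while those at his-14 and his-48 had 0. A smaller group held 3 summits upstream of mrps-35, a mitochondrial ribosomal protein gene, and 1 upstream of pph-5, which encodes a protein phosphatase. Their shared word occurred 184 times in tandem at 16 places, and the windows had between 374 and 388 similar copies elsewhere. Without the upstream ones, a conservative summit lay at 2 of 13 places of this word. For the words of 2 further groups of 4 peaks it was 10 of 61 and 14 of 1626.

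Copies were common enough to bear on single peaks. A copy of the window within 50 bp of the summit elsewhere in the genome, at 80% identity over 80% of its length or more, existed for 46 upstream peaks (21.2%) and for 39 of their flanks (17.97%; exact McNemar test, p = 0.392). The share was 9.20% at proximal summits (odds ratio 2.66, with adjusted p = 8.87e-05 by Fisher's exact test), 45.7% in introns (odds ratio 0.320, adjusted p = 4.36e-08) and 49.6% in intergenic sequence (odds ratio 0.274, adjusted p = 1.14e-09). Only 1 of the 16 peaks of the first group and 7 of the 16 of the second had such a copy. The filter on mapping quality is not given in the sources used here, and the part of shared reads in these peaks was not tested.

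Other noncoding genes, which the rule did not bar, lay near some upstream peaks. Within 200 bp of the summit, 30 peaks (13.8%, Wilson interval 9.86 to 19.05%) had a gene annotated as ncRNA, against 3.80% of eligible bases, 5 had a pseudogene (2.30% against 3.15%) and 1 a piRNA gene (0.461% against 2.43%). Of the 20 strongest peaks 5 were of this kind, at dhs-8, pcrg-1, W01D2.3, ZK816.3 and F08G2.5. The ncRNA gene beside the pcrg-1 peak was mrpr-1, which encodes the RNA of the RNase MRP ribonucleoprotein and is a small noncoding RNA that the rule's 4 types do not include. The median signal of the 30 peaks was 137, near that of all upstream peaks.

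In all, 235 of 19973 protein-coding genes (1.18%) had an upstream peak, against 387 (1.94%) with a proximal peak. Both kinds were present at 15 genes, 6.38% of the genes with an upstream peak and 3.88% of those with a proximal one. Gene lists, chosen with earlier results known and given as counts, are read against that 1.18%. An excess of promoter peaks of either kind at histone and ribosomal protein genes was among those earlier results, so the counts for these lists are not independent of them. Histone genes had an upstream peak in 11 of 72 cases (15.3%, Wilson interval 8.75 to 25.3%). Beyond those named above these were his-37 (147, with 74.5 in replicate 1 and 84.3 in replicate 2), his-47, his-70 and his-72. Cytoplasmic ribosomal protein genes had one in 8 of 78 cases (10.3%, 5.29 to 18.95%), at rpl-3, rpl-15, rps-24, rps-28, rpl-35, rps-1, rpl-1 and rpl-6, with a median signal of 288. The rpl-3 peak (chrIII:3867450-3867712) had 286 in replicate 1 and 312 in replicate 2, and the rpl-15 peak 188 in replicate 1 and 212 in replicate 2.

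Translation factors had an upstream peak in 3 of 45 cases, at eif-3.C (211 in replicate 1 and 253 in replicate 2), eif-3.I (86.6 and 118) and eef-1A.2 (57.7 and 88.3). Nuclear pore genes had one in 2 of 26 cases, npp-6 and npp-18, and tubulin and actin genes in 2 of 21, act-4 (signal 111) and act-1 (90.0). The respiratory chain list had 2 of 38, at cyc-1, the gene of cytochrome c1 (201), and cox-5A (119), the mitochondrial ribosomal list 2 of 70 and the chaperone list 2 of 51, at hsp-90 (140.1) and dnj-5 (100.6). Several lists of regulators had counts of 0 or 1, which at 1.18% of all genes are too few to set apart from the background. None of the 15 forkhead genes, pes-1 and fkh-2 among them, had an upstream peak, nor did any of 15 GATA and endoderm or mesoderm factors, 21 T-box, 37 bHLH, 25 Wnt pathway or 32 Notch pathway genes. Homeobox genes had 1 of 87 (1.15%), at ceh-38 (109), and nuclear hormone receptors 1 of 274, at nhr-48 (122). Maternal and early embryonic regulators had 2 of 84 (2.38%), spd-5 and cgh-1, the gene of a DEAD-box RNA helicase (112.4). Chemoreceptor genes had 2 of 1263, sri-5 and srbc-38 (255), and C-type lectin genes 3 of 240, the strongest at clec-53 (290.4), which is the peak shared with uba-5. Lists with none were aminoacyl-tRNA synthetases, proteasome, vacuolar ATPase, chaperonin, kinesin and dynein, muscle structure, cytochrome P450 and let genes. The list named for ubiquitin ligases and ubiquitin had 2 of 371 (0.539%), the stronger at ubc-9 (172). It does not hold every such gene, as eel-1 is not in it, so its count is not one for the whole class. The list of cuticle collagens had 1 of 177 (0.565%), col-46. The unc genes had 2 of 94 (2.13%), unc-85 and unc-108, splicing factors 1 of 53 (1.89%), uaf-2, and the cell cycle list 1 of 63 (1.59%), cdc-14.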

How the data were processed

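The deposited files are peak lists from 2 biological replicates on ce11, per the labels. The authors' signal value per peak was used to rank and describe peaks within a list. The deposited score was read to find the threshold (its lowest value in the conservative list is 830), and the deposited −log10 of the global IDR gave the stricter threshold. The authors' summit is an offset from the peak start. The aligner, the peak caller, any mapping filter and the depths were not given in the sources used here. Intervals cover the counting of peaks only.

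Summits within 200 bp of a stronger one were merged, which turned 1452 peaks into 1440 summits. Promoters came from Ensembl release 115 and sequence from the RefSeq copy of WBcel235, the same assembly as ce11. Similar windows were found with BLASTN 2.17.0 (E at most 0.0001), and exact tests were run with SciPy 1.17.1 and tested on simulated data, with Benjamini-Hochberg adjustment and a threshold of 0.05. Tests count each peak as independent. They say nothing of differences between samples. The members, motifs and 32 gene lists were chosen with earlier results of these data known. Named genes are those downstream of the 20 strongest peaks, up to 4 per list, and those at the edges of the rule. Genes of the similar groups, the motif carriers, the remaining genes of the histone and ribosomal lists, lin-13 and rbm-7 were chosen after their values were seen. Alternatives were other lists, IDR limits, flanks, windows and 1 peak per similar group. A peak that the naming rule covers is not reported here.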

Additional observations from a re-analysis of the deposited data

How the results depend on the processing

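Of the alternative values computed, 151 kept their direction and side of the threshold, 15 changed direction, 16 no longer passed, 16 newly passed and 10 counts moved. The ratio for upstream windows was 1.35 among summits away from small RNA genes and 1.48 among those of them with an IDR of at most 0.001, both added after seeing the data. Over all summits it was 0.794 at an IDR of at most 0.001, 0.998 with a small RNA limit of 500 bp and 0.996 to 1.12 in a single replicate's list. The chromosomes passing numbered 0 to 2 in a single replicate's list, I and V in replicate 2's, and chromosome IV had ratios of 1.04 to 1.204 there and 1.14 at the stricter IDR. For introns the ratio was 0.755 to 0.900 in a single replicate's list, 0.858 at the stricter IDR and 0.982 with 1 peak per similar group, an alternative added after seeing the data. Motifs passing numbered 5 with the optimal list, 4 with flanks 1000 bp away, 3 to 5 in a single replicate's list and 0 at the stricter IDR. RYAAAYA differed by -8.38 to 0.662 percentage points in a single replicate's list, and GTAAACA by 0 with 1 peak per group. The repeat-masked difference was -5.26 points with the optimal list, -6.91 with flanks towards the gene and -5.53 with flanks 1000 bp away. At the stricter IDR, 85 genes had an upstream peak, 0 classes differed in support (odds ratio 1.57 against proximal and 0.810 against introns) and 0 in signal (1.66 against proximal). Support differed in 2 classes with a 100 bp limit, and signal in 1 class with the quartile split. The stricter IDR leaves 72 peaks, which limits those counts, and the cause of the other changes was not tested. No paired analysis was possible because there is 1 group. The conservative list lacks 5 upstream peaks of the ranked list that pass its threshold, the strongest at Y62E10A.3 (signal 1059).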
